A study of Rattus norvegicus with 30 samples.

Results

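Bone marrow mesenchymal stem cells (BMSCs) of Sprague Dawley rats were compared after 12 h in osteogenic induction medium (group OS_12h, 3 samples) and before any induction (group CON, 3 samples). These 6 samples were taken by their labels from the 30 of the series, which also holds osteogenic cultures at 3 h and 72 h, and adipogenic and chondrogenic cultures at all 3 times. The cells came from the femurs and tibiae of 3 female rats aged 3 weeks, were used at passage 2 after growth in DMEM with serum, and carried no genetic change that the labels name. Each RNA sample was made from pooled cultures of 1 group. The osteogenic medium was a commercial one whose composition is not given in the sources used here. CON cells were not kept for a further 12 h in growth medium, so the medium and the 12 h in culture cannot be told apart. The labels mark the 3 samples of a group as replicates. The p-values and standard errors (SE) below rest on 1 spread per gene, estimated between such pooled samples over all 10 groups, not these 6 alone.

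BMSCs are adherent stromal cells that can form bone, fat and cartilage when placed in the matching medium. Osteogenic media commonly combine a glucocorticoid, ascorbate and a phosphate source, and the usual course runs from a phase of cell division, through deposition of matrix, to its mineralization. BMP and Wnt signals and the factors they induce promote the osteoblast fate, while secreted antagonists of both pathways restrain it.

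Expression is given in CPM, the reads of a gene scaled to a common library total, and the counts behind them could be read back from the files. The 3 CON libraries held 6594559 to 7179051 reads and the 3 OS_12h libraries 6564527 to 6690194. The listed genes took 53.7 to 54.2% of the reads in CON and 68.7 to 71.4% in OS_12h, and what the remaining reads were is not stated. A gene with 3 reads in a library, the floor used below, has 0.418 to 0.457 CPM in these 6 libraries, which covers counting error only. Many genes that cells in general use were listed at very low values. Vim, which encodes the intermediate filament of mesenchymal cells, was at 0.243 ± 0.0902 CPM (SD, n = 3) in CON, and Calr, an abundant chaperone, at 1.05 ± 0.635 CPM. A low or 0 value is therefore given below only as listed, and not as absence of the transcript. Of 19 stromal markers 13 were in the files and 7 passed the filter. Thy1, Itgb1, Cd44 and S100a4 stood between 579 and 12280 CPM in every one of the 6 samples, while the other 9, Vim, Pdgfra and Eng among them, were at 7.08 CPM or less, Vcam1 at 0 in all 6. Of the 24 haematopoietic markers only 4 had a value, and their sum was at most 0.914 CPM in any sample. Of the 10 endothelial markers 4 had a value, and Vwf, the only one to change, fell from 2.43 to 4.32 CPM in CON to 0.151 to 0.747 CPM in OS_12h.

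At 12 h in osteogenic medium genes of DNA replication and mitosis rose almost without exception, while the Wnt antagonist genes Sfrp2 and Frzb and the BMP targets Id2 and Id3 fell. Matrix genes moved in both directions, with Cemip and Lum lower and Lama5 and Has2 higher, as did inflammatory genes, with Il6, Ccl2 and Ccl7 lower and Cxcl10 higher. A gene was tested if 3 or more samples of the series reached 1 CPM. Of the 4363 genes so tested, 952 (21.8%) passed the threshold of a 2-fold change on log2(CPM + 1) and a Benjamini-Hochberg adjusted p under 0.05 in limma. Of these, 640 (14.7% of those tested) were higher in OS_12h and 312 (7.15%) were lower. The difference exceeded 4-fold for 155 of the higher and 72 of the lower genes. The 3 OS_12h samples did not overlap the 3 CON samples for 948 of the 952, against 2468 (56.6%) of all genes tested.

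The direction of the smaller changes depended on how the libraries were scaled. CPM divide by all reads, of which the listed genes held a larger part in OS_12h. Scaling by the median ratio of the listed genes gave factors of 0.903 for CON and 1.14 for OS_12h, moved the median log2 fold change of all genes tested by -0.164, and turned the split to 415 higher and 476 lower of 891 called. Quantile normalization gave 432 higher and 395 lower, equal sums over the listed genes 404 and 494, and edgeR on the recovered reads 466 and 729. A total of 656 genes (15%), 353 higher and 303 lower, were called by all of these as well as by the first fit. They are referred to below as called under every scaling, and where a named gene was not among them this is said.

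**Figure D1:**
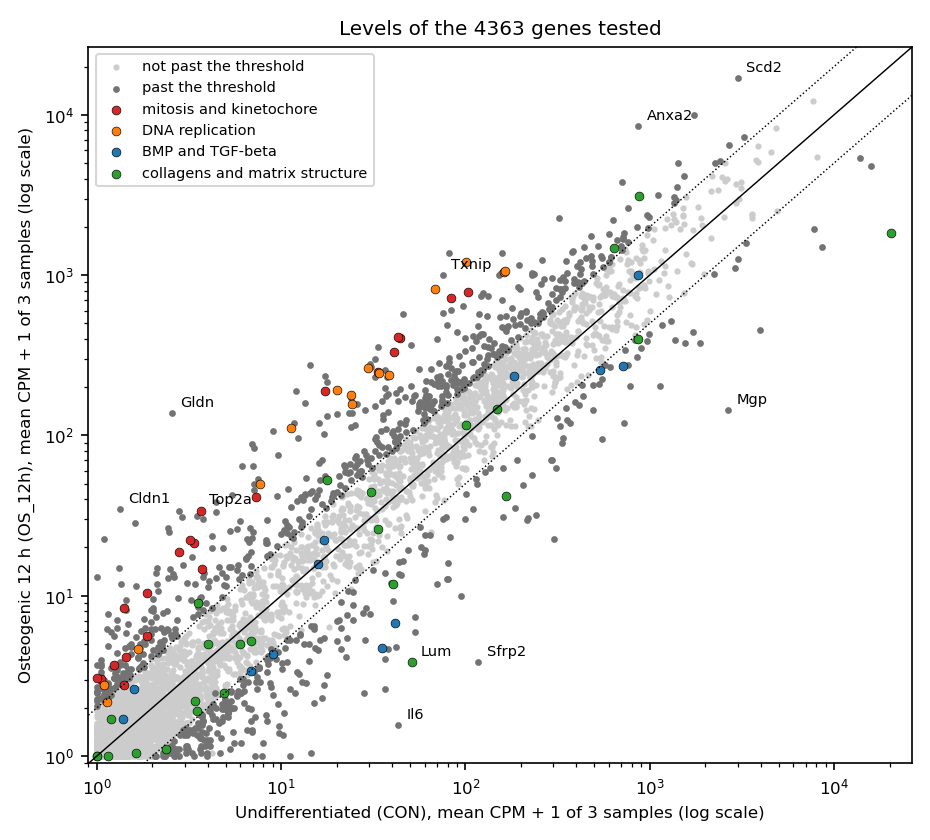
Mean CPM + 1 of the 3 CON samples (x axis) against that of the 3 OS_12h samples (y axis) for the 4363 genes tested, on log scales, with the line of equality and dotted lines at a 2-fold difference. Grey shades mark genes that did or did not pass the threshold, and coloured points are members of 4 lists: the mitosis and replication genes lie near or above the upper dotted line, and the matrix and BMP genes lie on both sides.

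The 12 largest rises among genes with a mean of at least 5 CPM in the higher group were Gldn, Cldn1, Cyp3a9, Pclaf, Pnma2, LOC102549061, Adamts8, Fam83d, Txnip, S100a7a, Cdca7 and Ccnf, and all were called under every scaling. Gldn, which encodes gliomedin, a membrane-bound matrix protein known from peripheral nerve, was at 1.86, 1.11 and 1.67 CPM in CON and at 137, 137 and 135 CPM in OS_12h. Its log2 fold change of 5.76 ± 0.37 (SE, adjusted p = 6.1e-14) was the largest of those named on log2(CPM + 1), though in edgeR S100a7a, Cyp3a9 and Cldn1 rose further, and the groups lay far apart. Cldn1, encoding the tight junction protein claudin-1, was at 0.859, 0.139 and 0 CPM in CON and 32.4, 36.5 and 32.5 CPM in OS_12h (log2 fold change 4.76 ± 0.50). Cyp3a9, a cytochrome P450 of steroid and drug oxidation, had 2 reads in all 3 CON samples together and stood at 21.2, 20.3 and 23 CPM in OS_12h. S100a7a, encoding a calcium-binding S100 protein, had no read in CON and 12.5, 12.1 and 11.4 CPM in OS_12h, at least 27.7-fold above the floor of 3 reads per CON library. Adamts8, encoding a secreted metalloprotease, was at 12.2, 9.33 and 11.4 CPM in CON and 183, 198 and 184 CPM in OS_12h.

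Several of these 12 are genes of dividing cells. Pclaf, encoding the PCNA-associated factor, was at 13.8, 12.9 and 13.5 CPM in CON and at 256, 284 and 276 CPM in OS_12h, a log2 fold change of 4.24 ± 0.17 (adjusted p = 3.8e-18). Ccnf, encoding cyclin F, rose from 47.8, 43.5 and 42.3 CPM to 557, 590 and 555 CPM. Fam83d, encoding a spindle protein, rose 14.2-fold and Cdca7, a cell division cycle associated gene, 14.7-fold in mean CPM. Txnip, the glucose-regulated inhibitor of thioredoxin, belongs to no such group: it was at 69.3, 78.1 and 75.7 CPM in CON and at 971, 1051 and 964 CPM in OS_12h (log2 fold change 3.73 ± 0.16).

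The 12 largest falls were Sfrp2, Il6, Mgp, Cys1, Frzb, Lum, Tnfrsf11b, Palmd, Cemip, Slc15a3, Marcks and Aoc1, again all called under every scaling. Cemip, encoding a hyaluronan-degrading protein, had the highest CON mean of these, with 20870, 20140 and 20110 CPM, and stood at 1718, 1893 and 1840 CPM in OS_12h, 11.2-fold lower. Palmd, encoding palmdelphin, fell from 25.8, 29.9 and 25.5 CPM to 0.904, 1.94 and 1.52 CPM. Marcks, encoding an actin-regulating substrate of protein kinase C, fell 10.5-fold, from 88 to 96.8 CPM in CON to 7.62 to 9.6 CPM in OS_12h. Slc15a3, encoding a lysosomal peptide and histidine transporter, was at 10.2, 13.1 and 7.43 CPM in CON and had no read in OS_12h, at least 22.6-fold lower against the floor per library. Aoc1, encoding diamine oxidase, fell 11.8-fold, and Cys1, encoding the cilium-associated protein cystin, fell 22.2-fold. The other members are described with their groups below.

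**Figure D2:**
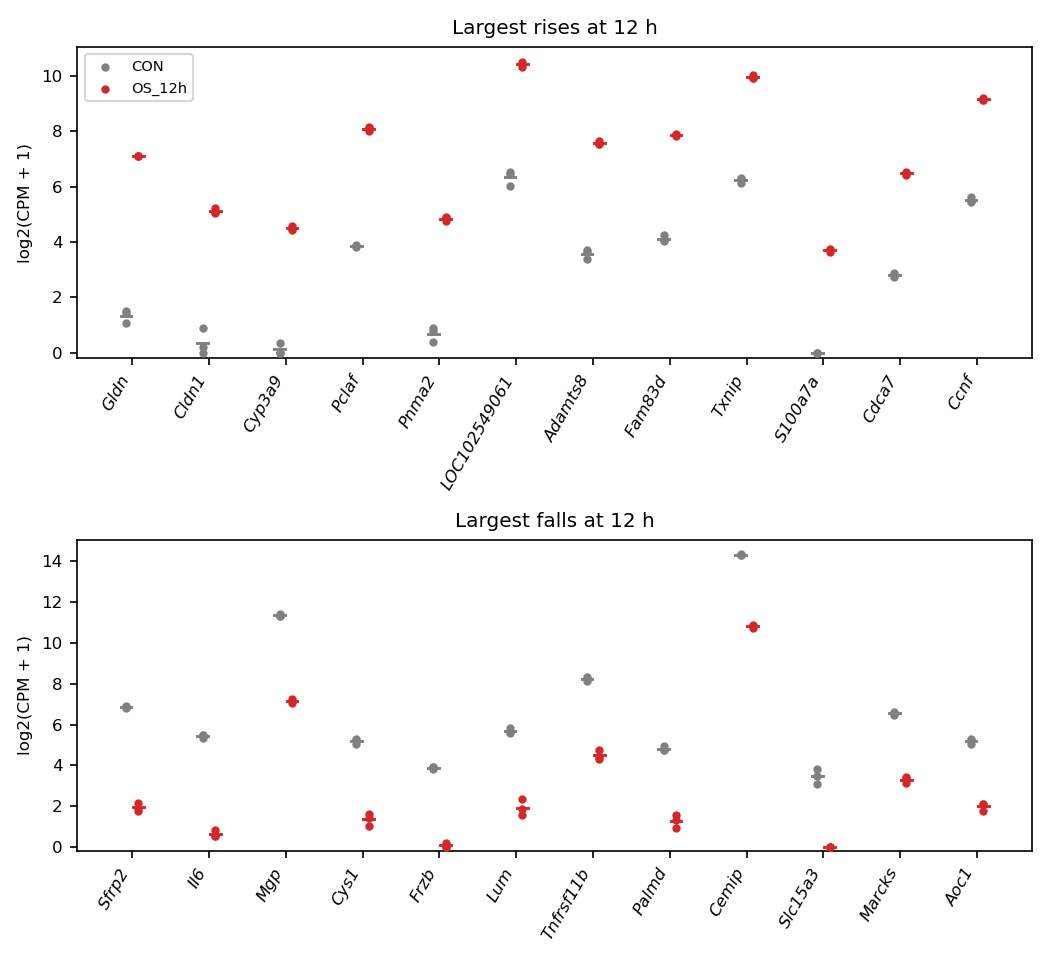
log2(CPM + 1) in each of the 3 CON (grey) and 3 OS_12h (red) samples for the 12 genes with the largest rises (top) and the 12 with the largest falls (bottom); points are samples and short bars are group means. In every gene shown the samples of a group lie close together and the groups do not overlap, as in Gldn with 135 to 137 CPM in OS_12h and at most 1.86 CPM in CON.

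Genes of DNA replication and of mitosis formed the most uniform rise. Of the 15 replication genes tested, 14 rose, with a median log2 fold change of 2.71 over the 15 beside a median of 0.09 over all genes tested, and all 14 were called under every scaling. All 21 mitosis and kinetochore genes tested rose (median 2.65), and 20 of them, all but Anln, under every scaling. A further 3 of 24 mitosis genes and 12 of 27 replication genes with a value lay under the filter. The lists were written with earlier results of these data known, so the counts describe the lists and are no test of them.

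The replicative helicase is made of the MCM proteins. Mcm6 was at 102, 102 and 94.2 CPM in CON and at 1181, 1246 and 1209 CPM in OS_12h, a log2 fold change of 3.60 ± 0.12 (adjusted p = 5.6e-20). Mcm3 rose from 63.5, 73.1 and 66.4 CPM to 803, 854 and 790 CPM, and Mcm4 from 153 to 167 CPM to 1039 to 1045 CPM. Mcm7 was the exception in the list, at 0, 0.418 and 0 CPM in CON and 1.66, 0.598 and 1.22 CPM in OS_12h, where few reads were counted. Cdt1, which loads the helicase at origins, rose 9.93-fold in mean CPM, and Gins1, a subunit of the active helicase, rose 10.6-fold. The clamp loader genes Rfc3, Rfc4 and Rfc2 rose 7.81-, 7.38- and 6.73-fold. Tyms and Rrm1, members of the list that act in nucleotide supply, moved with them. Tyms, encoding thymidylate synthase, rose from 29.8, 28.4 and 27.8 CPM to 266, 260 and 263 CPM, and Rrm1, encoding the large subunit of ribonucleotide reductase, from 152 to 174 CPM to 1045 to 1080 CPM. Rpa2, whose product coats single-stranded DNA, rose 6.33-fold.

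Among the mitotic genes, Birc5, encoding survivin of the chromosomal passenger complex, was at 14.3, 21.9 and 12.7 CPM in CON and at 182, 182 and 198 CPM in OS_12h (log2 fold change 3.48 ± 0.19, adjusted p = 1.9e-15). Top2a, encoding the topoisomerase that untangles chromosomes, rose from 2.44, 2.51 and 3.03 CPM to 33.8, 31.1 and 34.1 CPM. The kinesins of the spindle followed: Kif11 stood at 80.5 to 84.7 CPM in CON and 674 to 750 CPM in OS_12h, and Kif20a at 90.8 to 113 and 779 to 799 CPM. Cdc20, the activator of the anaphase-promoting complex, rose 8.30-fold, and Nuf2, an outer kinetochore protein, 9.83-fold. Foxm1, the transcription factor of late cell cycle genes, had no read in CON and 1.05, 2.69 and 2.44 CPM in OS_12h. Of the 5 cell cycle inhibitors tested, 2 fell: Hbp1, a repressor of cell cycle genes, from 808, 876 and 868 CPM to 295, 315 and 311 CPM, and Mxd4, a MYC antagonist, from 6.07 to 8.16 CPM to 1.83 to 3.14 CPM. Ccng1 (log2 fold change 0.87), Cdkn2a (0.77) and Rbl2 (-0.68) did not pass, and edgeR called 1 of the 5 higher and 3 lower.

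Replication-dependent histone genes, which cells use in S phase, also rose, 15 of the 18 tested, with 12 called under every scaling and a median of 2.14. Hist1h2ao was at 143, 181 and 146 CPM in CON and at 1325, 1487 and 1287 CPM in OS_12h. Hist1h1a rose from 28.5, 29.9 and 29.3 CPM to 252, 312 and 270 CPM, and Hist1h3b 8.45-fold. Histone genes are near-identical copies, so reads may be split among them, and single members are uncertain. Their mature transcripts mostly lack a poly(A) tail, so their levels also move with the method of RNA selection, on which the labels and the published methods differ.

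Promoter sequences of RefSeq (build GRCr8, 250 bases before to 50 bases after the start) were searched on both strands for short motifs known from such genes. The letters TTTGAA, the core of the cell cycle homology region, stood in 12 of the 15 mitosis promoters matched by symbol, in 11.7% of the 3206 promoters of genes tested and in 18.1% of 27457 promoters in all. They also stood in 4 of 7 histone and 2 of 10 BMP and TGF-beta promoters, but in 1 of 12 replication promoters. The E2F letters TTTCGCGC or TTTGGCGC stood in 7 of the 12 replication promoters matched (Cdt1, Gins1, Mcm3, Mcm6, Mcm7, Rfc3 and Tyms), in 1.43% of those of genes tested and in 0.841% in all. CCAAT stood in 12 of 15 mitosis and 8 of 12 replication promoters, beside 37.7% in all, and also in 6 of 7 histone and 7 of 9 cholesterol and fatty acid promoters. Both lists were written with results known, and a match is a description, not a bound site. The 150 bases before the start are shown, 5′ to 3′ on the strand of the gene, for the members that rose most and hold the motif there, so that its place can be seen. Capitals mark TTTGAA, or TTCAAA where it lies on the other strand.
Birc5 (chr10:103571996-103572145, + strand): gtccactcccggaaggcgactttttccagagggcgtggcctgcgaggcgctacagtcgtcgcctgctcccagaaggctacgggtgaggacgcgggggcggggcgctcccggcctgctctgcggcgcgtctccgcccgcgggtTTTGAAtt
Top2a (chr10:84473094-84473243, - strand): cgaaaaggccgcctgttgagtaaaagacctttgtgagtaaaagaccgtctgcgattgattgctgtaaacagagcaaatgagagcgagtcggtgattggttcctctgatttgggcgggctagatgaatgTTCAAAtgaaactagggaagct
Kif22 (chr1:191080879-191081028, - strand): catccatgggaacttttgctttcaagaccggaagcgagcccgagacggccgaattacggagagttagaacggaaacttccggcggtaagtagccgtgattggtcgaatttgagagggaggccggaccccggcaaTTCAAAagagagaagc
Cdc20 (chr5:137255800-137255949, - strand): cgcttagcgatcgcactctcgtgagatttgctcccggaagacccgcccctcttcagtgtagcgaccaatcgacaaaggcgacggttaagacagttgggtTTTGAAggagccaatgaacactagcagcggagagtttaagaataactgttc
In these 4 the motif began 8, 22, 16 and 51 bases before the start. In the next 3, of the replication list, capitals mark the E2F letters on either strand, and in Mcm6 and Gins1 matches on both strands overlap.
Mcm6 (chr13:42404353-42404502, - strand): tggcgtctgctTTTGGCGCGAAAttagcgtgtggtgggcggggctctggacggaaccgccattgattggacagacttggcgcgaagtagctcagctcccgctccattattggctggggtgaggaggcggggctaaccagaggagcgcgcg
Gins1 (chr3:160184770-160184919, + strand): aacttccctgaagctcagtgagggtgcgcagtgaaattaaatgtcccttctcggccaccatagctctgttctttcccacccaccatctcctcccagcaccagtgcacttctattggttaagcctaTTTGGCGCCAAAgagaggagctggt
Tyms (chr9:120776084-120776233, - strand): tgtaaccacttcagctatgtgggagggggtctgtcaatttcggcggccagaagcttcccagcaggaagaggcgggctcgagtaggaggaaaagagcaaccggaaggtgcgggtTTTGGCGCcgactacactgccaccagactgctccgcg

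Among genes of growth and lipid synthesis many differences lay near the 2-fold threshold, so the calls depended on the scaling. The median log2 fold change with CPM and with median-ratio scaling was 1.36 and 1.03 for ribosome biogenesis, 0.99 and 0.67 for ribosomal proteins, and 0.80 and 0.51 for cholesterol and fatty acid synthesis. Of 6 ribosome biogenesis genes tested 4 rose, 3 of them under every scaling. Rrp12, a factor of ribosomal subunit export, went from 80.5, 82.2 and 68.5 CPM to 273, 271 and 268 CPM, and Npm1, encoding nucleophosmin, from 126 to 142 CPM to 378 to 414 CPM. Of 29 ribosomal protein genes tested 14 passed the threshold as higher, yet only Rpl26 did under every scaling, at 0.143 to 0.758 CPM in CON and 1.96 to 2.84 CPM in OS_12h. Rplp0, for example, was at 2193, 2099 and 2490 CPM and 4773, 5366 and 4881 CPM, and its log2 fold change of 1.15 became 0.81 with median-ratio scaling. Of 41 respiratory chain genes tested 3 rose, and of these Uqcrc1, a core subunit of complex III, under every scaling (log2 fold change 1.56 ± 0.16). The shares called were 66.7% for ribosome biogenesis and 48.3% for ribosomal proteins, but 7.32% for the respiratory chain, beside 21.8% of all genes tested.

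Of 16 genes of cholesterol and fatty acid synthesis 7 rose and 1, the cholesterol exporter Abca1, fell (50% called, beside 21.8% of all genes tested). Fasn, encoding fatty acid synthase, was at 694, 697 and 734 CPM in CON and 3676, 3938 and 3760 CPM in OS_12h (log2 fold change 2.42 ± 0.15, adjusted p = 6.9e-14). Sqle, encoding squalene epoxidase, rose from 422 to 474 CPM to 1453 to 1533 CPM, and Cyp51, the lanosterol demethylase, from 1056 to 1148 CPM to 3085 to 3234 CPM. These 3 were called under every scaling, whereas Insig1, Fdft1 and Msmo1 were not. Srebf2, encoding the sterol-sensing factor of the pathway, was at 134 to 148 CPM and 220 to 226 CPM and did not pass the threshold. The sterol element letters TCACNCCAC were in none of the 9 promoters of this list matched and in 1.13% of all.

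Of the 10 glycolysis genes tested 2 rose, Eno1 (2.27 to 3.34 CPM against 8.44 to 8.84 CPM) and Ldha, encoding lactate dehydrogenase A, at 2583, 2798 and 2677 CPM against 6319, 6568 and 6628 CPM. Only Eno1 was called under every scaling. Of 10 hypoxia genes 3 rose and 1 fell. Epas1, encoding the hypoxia-inducible factor HIF-2α, rose from 366, 384 and 380 CPM to 1385, 1440 and 1349 CPM (log2 fold change 1.88 ± 0.15), Ndrg1 3.14-fold, and Car12, a carbonic anhydrase, from at most 0.279 CPM to 3.46 to 4.18 CPM. Hif1a, listed at 0.91 to 1.25 CPM in CON, had no read in OS_12h. Among 11 genes of glutathione and oxidative stress, Prdx6, Prdx1 and Mt2A rose, while Gclm, a subunit of the enzyme that limits glutathione synthesis, fell from 188, 201 and 180 CPM to 73.7, 69.1 and 65.5 CPM and Ftl1 from 1.29 to 2.65 CPM to 0.152 to 0.897 CPM. All but Prdx1 of these 5 were called under every scaling. Of 14 genes of ER chaperones and stress only Dnajc3 passed, and not under every scaling. In glycolysis 20% of genes were called and in ER chaperones 7.14%, beside 21.8% of all genes tested. The shares for hypoxia and for glutathione and oxidative stress were 40% and 45.5%.

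Of the 12 Wnt genes tested 3 fell and none rose. This is 25%, beside 7.15% lower and 21.8% called in either direction among all genes tested. All 3, Sfrp2, Frzb and Dkk3, encode secreted antagonists and fell under every scaling. Other secreted members, Notum, Rspo3, Wnt2b and Wnt4, were at no more than 1.52 CPM in any sample and did not pass. Sfrp2, a secreted frizzled-related protein, was at 116, 120 and 113 CPM in CON and at 2.41, 2.69 and 3.5 CPM in OS_12h (log2 fold change -4.93 ± 0.75, adjusted p = 2.5e-06), the largest fall of the genes named on this scale, though in edgeR Slc15a3, Frzb and Il6 fell further. Frzb, of the same family, was at 13.9, 13.9 and 12.9 CPM and had 1 read in the 3 OS_12h samples together. Dkk3 went from 2.44, 4.18 and 3.64 CPM to 0.753, 0.598 and 0.762 CPM. Axin2, a common target of canonical Wnt signalling, was at 2.87, 2.79 and 1.36 CPM and 0.603, 2.69 and 1.52 CPM, with overlapping groups. The receptor gene Fzd4 stood at 278 to 316 CPM and 198 to 205 CPM, a difference short of the threshold.

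Of 12 genes of BMP and TGF-beta signalling 6 fell (50%, beside 7.15% of all genes tested), 5 of them under every scaling. The median over the list was -0.50. These 6 include targets and antagonists alike. Id2 and Id3, immediate targets of BMP receptors that block bHLH factors, went from 41.2, 43 and 37 CPM to 5.57, 6.73 and 5.03 CPM and from 682, 689 and 770 CPM to 256, 301 and 258 CPM. Atoh8, a bHLH factor downstream of BMP signals, fell from 34.2, 33 and 35.6 CPM to 2.26, 5.38 and 3.5 CPM (log2 fold change -2.96 ± 0.30, adjusted p = 1.0e-09). Nog, encoding the BMP antagonist noggin, fell 2.41-fold, from 6.73 to 10.3 CPM to 1.64 to 4.42 CPM, and the pseudoreceptor gene Bambi, not called under every scaling, 2.42-fold. Inhbb, encoding the activin beta B chain, fell from 506 to 570 CPM to 248 to 265 CPM. Tgfb1 was at 180 to 185 CPM in CON and 217 to 248 CPM in OS_12h, a log2 difference of 0.35 that shrank to 0.01 with median-ratio scaling.

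Markers of the osteoblast were mostly not higher at 12 h. Of the 33 listed genes of osteoblasts and mineralization, 19 had a value and 11 were tested, of which 1 rose and 3 fell. These are 36.4% of those tested, beside 21.8% called among all genes tested. Dlx3, a homeobox factor of bone and skin, was at 27.9, 29.4 and 31.7 CPM in CON and at 272, 270 and 258 CPM in OS_12h (log2 fold change 3.13 ± 0.30, adjusted p = 3.4e-10). Msx2, another homeobox factor of bone, was at 6.02, 9.19 and 9.55 CPM and 17.9, 17.5 and 15.1 CPM, just short of the threshold at a log2 fold change of 0.97. The genes that fell encode inhibitors of mineralization or of bone resorption. Mgp, the matrix Gla protein that inhibits calcification, went from 2750, 2604 and 2603 CPM to 142, 152 and 134 CPM (log2 fold change -4.21 ± 0.23, adjusted p = 1.9e-15). Tnfrsf11b, encoding osteoprotegerin, the decoy receptor of RANKL, fell 13.9-fold, from 300, 325 and 281 CPM to 20.3, 25.7 and 19 CPM. Ankh, the pyrophosphate transporter, fell 2.09-fold. Ibsp, encoding bone sialoprotein, was at 2.12 to 2.87 CPM and 1.07 to 1.81 CPM and did not pass the threshold. Sp7, Alpl, Spp1, Dlx5 and Omd were listed at 0 in all 6 samples, which given the low values of common genes noted above says only that they were listed so.

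Among genes of the other lineages the shares called, 16.7% for adipocytes and 25% for chondrocytes, lay near the 21.8% of all genes tested. Of 12 adipocyte genes tested Fabp5, a fatty acid-binding protein, rose from 34.5 to 36.2 CPM to 243 to 264 CPM, Lpl, encoding lipoprotein lipase, fell (log2 fold change -2.60), and Pparg and Cebpa were at most 1.06 CPM in any sample. Of 8 chondrocyte genes 2 fell, Sox9, the cartilage master factor, from 46.5, 46.8 and 50.8 CPM to 20.2, 21.2 and 13.4 CPM, and Col11a2 from 0.418 to 1.43 CPM to no read. Of 7 stromal markers tested 2 (28.6%) passed as higher: Ngfr, at most 0.43 CPM in CON and 6.43 to 7.08 CPM in OS_12h, and Cd44, at 579 to 628 and 1186 to 1219 CPM, which was not called under every scaling. Thy1 was at 7736 to 8280 CPM in CON and 5253 to 5570 CPM in OS_12h, short of the threshold.

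Glucocorticoid-responsive genes moved in both directions. Of the 8 tested 3 rose and 2 fell (62.5% called, beside 21.8% of all genes tested). Crispld2 went from 2.15, 2.79 and 2.58 CPM to 27.3, 30.5 and 34 CPM, the metallothionein gene Mt2A from 342, 316 and 410 CPM to 1000, 1083 and 1020 CPM, and Tsc22d3, encoding the glucocorticoid-induced leucine zipper GILZ, from 25.3 to 31.1 CPM to 66.9 to 81.2 CPM, the last not under every scaling. Hsd11b1, the enzyme that regenerates active glucocorticoid inside cells, fell from 1246, 1208 and 1056 CPM to 481, 490 and 482 CPM, and Rgcc from 5.16 to 6.37 CPM to 0.305 to 0.598 CPM. The palindromic glucocorticoid response element was in none of the 7 promoters of this list matched and in 0.422% of all.

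Inflammatory genes moved in both directions too. Of 13 tested 5 fell, all under every scaling, and 3 rose (61.5% called, beside 21.8% of all genes tested). Il6, encoding interleukin-6, was at 43.4, 39.3 and 44.1 CPM in CON and 0.452, 0.448 and 0.762 CPM in OS_12h (log2 fold change -4.80 ± 0.29, adjusted p = 2.5e-14). The monocyte chemokine genes Ccl2 and Ccl7 fell from 1428, 1257 and 1429 CPM to 397, 368 and 406 CPM and from 1116, 1130 and 1145 CPM to 203, 211 and 195 CPM. Il1a fell 5.70-fold and Relb, of the NF-κB family, 3.12-fold. Against these, Cxcl10, an interferon-induced chemokine, rose from at most 0.279 CPM to 4.97, 5.38 and 5.33 CPM, under every scaling. The neutrophil chemokine genes Cxcl1, at 2996, 3574 and 3120 CPM against 7076, 7677 and 7123 CPM, and Cxcl2 rose as well, but not under every scaling. Of 9 genes of the interferon response limma called none, with 3 at an unadjusted p under 0.05, and edgeR called 1. Of 5 circadian clock genes limma called none, with 1 at an unadjusted p under 0.05, and edgeR called 2.

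In the extracellular matrix, more genes fell than rose. Of 25 collagens and other structural matrix genes tested 7 fell and 4 rose, 6 and 2 of them under every scaling, with a median of -0.22. In this list 44% were called, beside 21.8% of all genes tested. Besides Cemip, Lum, encoding the collagen-binding proteoglycan lumican, fell from 55.7, 47.9 and 47.3 CPM to 4.07, 1.94 and 2.59 CPM (log2 fold change -3.76 ± 0.75). Itgbl1 and Spon1, encoding secreted matrix-associated proteins, fell from 160 to 170 CPM to 36 to 45.2 CPM and from 36.7 to 40.8 CPM to 10.2 to 11.4 CPM. Col8a2, a short-chain collagen, fell 2.17-fold. Lama5, encoding the laminin α5 chain of basement membranes, rose from 868, 878 and 862 CPM to 3003, 3250 and 3096 CPM (log2 fold change 1.84 ± 0.18), and Has2, encoding a hyaluronan synthase, from 18.8, 18.1 and 13 CPM to 50, 50.4 and 55.5 CPM. Loxl3, a lysyl oxidase-like gene, was at 604 to 666 CPM and 1424 to 1524 CPM, called but not under every scaling.

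Of 12 matrix proteases and inhibitors 4 fell and 2 rose (50% called, beside 21.8% of all genes tested), all 6 under every scaling. Mmp2, encoding gelatinase A, was at 15810, 15660 and 16220 CPM in CON and 4547, 5026 and 4753 CPM in OS_12h. Adamts1 fell 5.72-fold from 8337 to 8703 CPM, and the aggrecanase gene Adamts4 8.21-fold from 47.9 to 56 CPM. Ctsd, encoding cathepsin D, fell 2.20-fold. Plau, encoding urokinase, rose 3.76-fold from 1.53 to 3.49 CPM and Mmp16, a membrane-type protease, 2.97-fold. Adamts8, described above, moved opposite to Adamts1 and Adamts4.

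Of 12 genes of growth factors and the IGF axis 4 fell, all under every scaling: Ptn, encoding pleiotrophin, from 79.5, 84.3 and 72.5 CPM to 11, 11.4 and 12.6 CPM, the IGF-binding protein genes Igfbp6 and Igfbp3 by 2.48- and 12.3-fold, and Gas6 by 4.58-fold. The ratio of Igfbp3 rests on low CPM: its log2 fold change on log2(CPM + 1) was -1.67, beside -2.65 for Ptn. The shares called in the growth factor list (33.3%), in the contractile list (26.7%) and in the adhesion list (31.2%) stand beside 21.8% of all genes tested. Of 15 contractile and actin genes 3 fell, Cald1, Tpm1 and Cyr61, and 1, Des, encoding desmin, rose from 0.143 to 0.697 CPM to 6.78 to 7.46 CPM. In this list edgeR called 6 as lower and 3 as higher. Of 16 adhesion and junction genes Cldn1 and Itgb7 rose, and Cdh23, Gja1 and Gjb2 fell. Gja1, encoding connexin 43, the main gap junction protein of bone cells, went from 936, 888 and 1080 CPM to 389, 374 and 391 CPM.

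Of 16 semaphorin and axon guidance genes 5 rose and 2 fell (43.8% called, beside 21.8% of all genes tested), all under every scaling. Apart from Gldn, Efnb2, encoding ephrin-B2, rose from 223, 233 and 228 CPM to 1019, 1021 and 1036 CPM (log2 fold change 2.17 ± 0.10, adjusted p = 4.2e-17), the ephrin receptor gene Epha2 3.41-fold, the plexin gene Plxna2 3.42-fold and Sema3e 3.39-fold. Slit2 and Slit3, encoding secreted guidance cues, fell from 2.43 to 3.48 CPM to 0.448 to 0.762 CPM and from 2.58 to 6.73 CPM to 0.452 to 2.74 CPM. Of 85 solute carrier genes tested 11 rose and 3 fell, 5 and 3 of them under every scaling. These are 16.5%, under the 21.8% called among all genes tested. EdgeR called 9 higher and 11 lower and median-ratio scaling 6 and 7. Slc25a5, an ADP/ATP carrier of mitochondria, rose 5.52-fold, and Slc1a5, a glutamine transporter, 3.00-fold.

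Transcription factors were the class the study itself followed. The list used here was put together with results of these samples in view and is not the study's own selection at 12 h, so its counts are no independent evidence. Of 39 tested 16 were higher and 10 lower, 12 and 10 under every scaling, but median-ratio scaling gave 14 higher and 15 lower and edgeR 15 and 18. In the first fit 66.7% were called, beside 21.8% of all genes tested. Hopx, an atypical homeodomain protein, was at 0, 0.975 and 0 CPM in CON and 14.3, 13.6 and 13.7 CPM in OS_12h. Klf4, a Krüppel-like factor of stem cells and epithelia, rose from 217, 232 and 241 CPM to 1011, 1000 and 972 CPM (log2 fold change 2.11 ± 0.21), Klf10 4.42-fold and Pax8 7.05-fold. Meox2, a mesodermal homeobox factor, fell from 283, 321 and 263 CPM to 64.8, 70.1 and 73.3 CPM, Maf 2.83-fold, Tsc22d1 4.13-fold and Zfp521, known as a modulator of osteoblast and adipocyte fates, 3.24-fold. Of 7 genes of immediate-early response and MAPK feedback Dusp6, Spry2 and Dusp4 passed as higher (42.9%, beside 14.7% of all genes tested), none under every scaling.

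**Figure D3:**
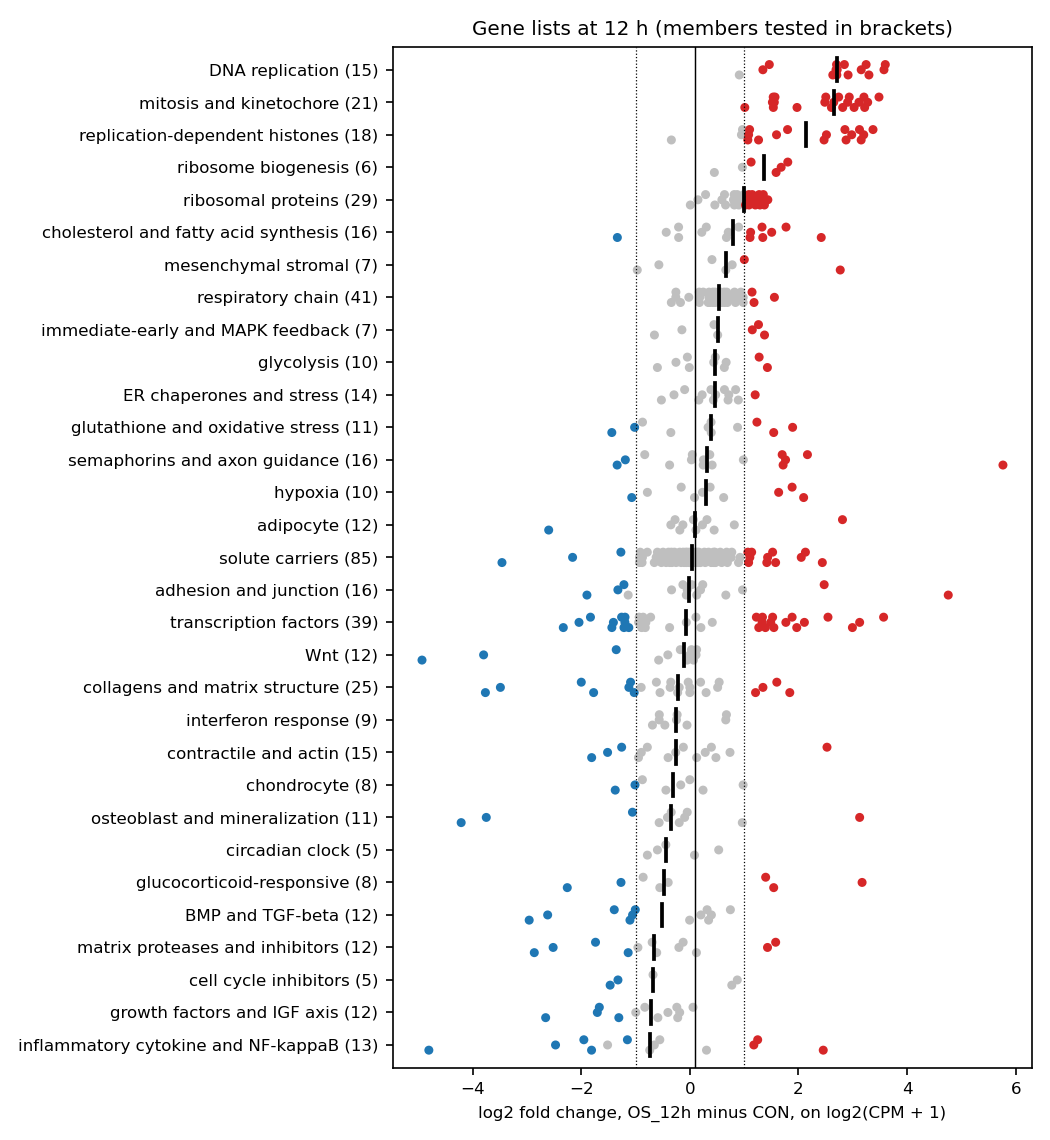
log2 fold change of OS_12h over CON on log2(CPM + 1) (x axis) for every tested member of the lists with at least 5 of them (y axis, number tested in brackets), ordered by the list median (black bar). Red points were called higher, blue lower and grey not called; dotted lines mark a 2-fold change and the thin line the median of all genes tested. The replication and mitosis lists lie almost wholly right of the upper dotted line, while the Wnt, matrix and inflammatory lists hold single members far to the left.

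The next comparisons asked what set the 12 h osteogenic cells apart from the other cultures. Against adipogenic cells of the same time (AD_12h), 574 genes (13.2%) passed the threshold, 305 (6.99%) higher and 269 (6.17%) lower in OS_12h. In that comparison 433 (9.92%) were called under every scaling, and the groups did not overlap for 1963 (45%). Against chondrogenic cells (CH_12h) 696 (16%) passed, 387 (8.87%) higher and 309 (7.08%) lower, 607 (13.9%) under every scaling, without overlap for 2226 (51%). Against osteogenic cells at 3 h (OS_3h) 341 (7.82%) passed, 205 (4.7%) higher and 136 (3.12%) lower, 258 (5.91%) under every scaling, without overlap for 1523 (34.9%). Each was tested directly, without CON. The split depended on the scaling. EdgeR called more genes lower than higher in all 3 comparisons, 290 higher and 485 lower against AD_12h, 381 and 525 against CH_12h, and 166 and 283 against OS_3h. Equal sums gave 210 higher and 371 lower against AD_12h and 327 and 346 against CH_12h, but 157 and 155 against OS_3h. In each group compared 1 library stood apart in the share of reads in listed genes. AD_12h replicate 1 had 64.6% beside 54.2 and 54.3%, CH_12h replicate 2 had 67.2% beside 62.0 and 61.3%, and OS_3h replicate 3 had 68.8% beside 63.1 and 63.1%. Without these libraries 739, 704 and 361 genes were called. Their part in the results below was not tested further except for AD_12h.

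The cell cycle genes were far higher in OS_12h than in CH_12h, and fewer of them differed from AD_12h. All 21 mitosis genes, 14 of 15 replication genes and 16 of 18 histone genes were higher in OS_12h than in CH_12h. Top2a, for example, was at 33.0 ± 1.65 CPM (SD, n = 3) in OS_12h and 2.71 CPM in CH_12h, and Mcm6 at 1212 and 128 CPM. Against AD_12h 5 replication genes were higher, Mcm3, Mcm6 and Cdt1 under every scaling and Gins1 and E2f2 not, together with 3 histone genes. Limma called none of the 21 mitosis genes in that comparison, with 11 higher at an unadjusted p under 0.05, and edgeR called none. Without AD_12h replicate 1 the counts were 3 mitosis, 5 replication and 6 histone genes. Against OS_3h 10 replication, 7 mitosis and 7 histone genes were higher at 12 h, beside 4.7% of all genes tested. In edgeR these counts were 9, 4 and 4. Side by side, and with CON shared, the median log2 difference of the replication list from CON was 1.60 in OS_3h, 2.71 in OS_12h, -0.46 in osteogenic cells at 72 h, 1.91 in AD_12h and 0.26 in CH_12h. For the mitosis list the same medians were 1.82, 2.65, -0.83, 1.95 and 0.24.

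**Figure D4:**
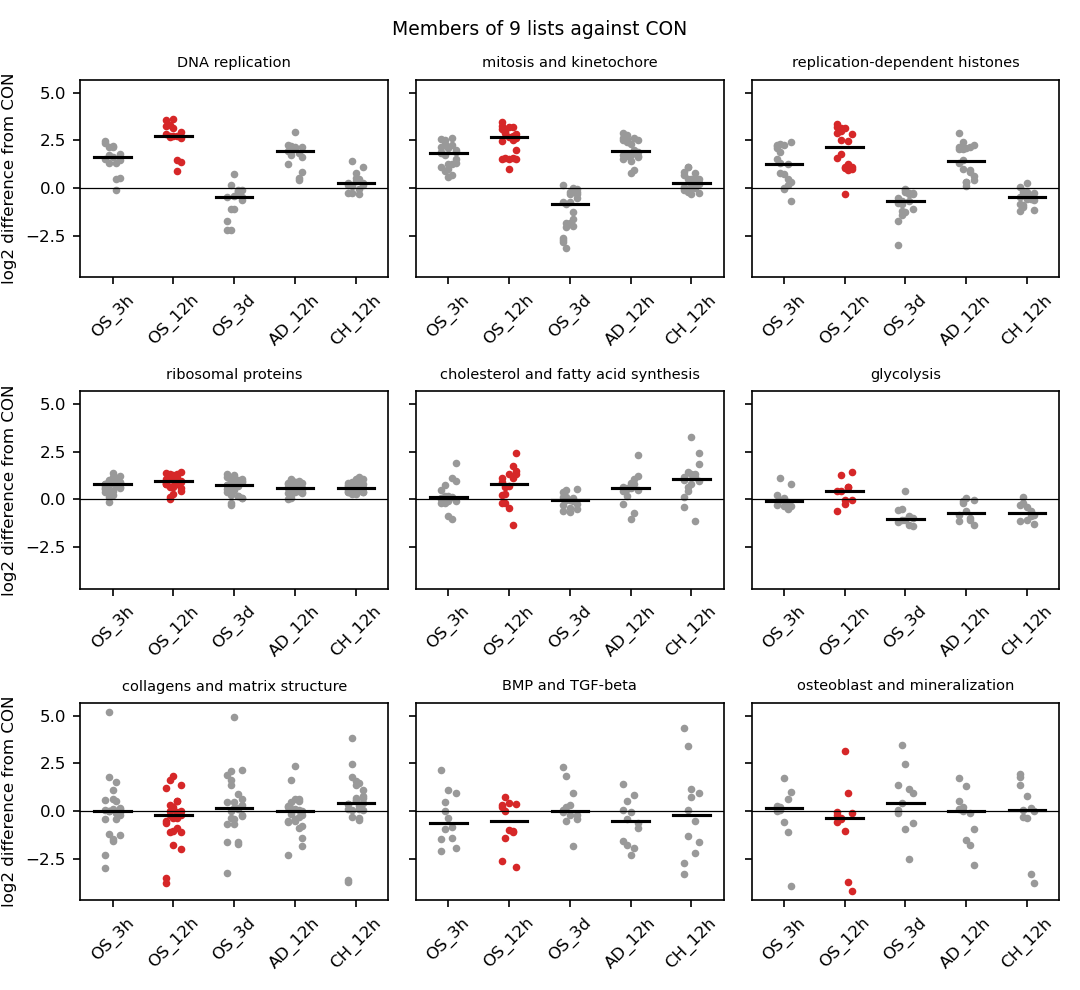
Difference of each tested member's mean log2(CPM + 1) from CON (y axis) in osteogenic cells at 3 h, 12 h (red) and 72 h (OS_3d) and in adipogenic and chondrogenic cells at 12 h, for 9 lists; bars are medians over members and all groups share the 3 CON samples. The medians of the replication, mitosis and histone lists are highest in OS_12h, at 2.71, 2.65 and 2.14. At 72 h these medians are below 0, while the members Tyms, Rrm1 and Hmgb2 lie above 0.

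Of 10 glycolysis genes 6 were higher than in AD_12h and 6 than in CH_12h, beside 6.99% and 8.87% of all genes tested. Pgk1, encoding phosphoglycerate kinase, was at 3326 CPM in OS_12h, 1103 in AD_12h and 1179 in CH_12h, and Ldha at 6505, 2570 and 2934 CPM. In CON their means were 2140 and 2686 CPM. Of 10 hypoxia genes 5 were higher than in AD_12h, while 4 were higher and 2 lower than in CH_12h, where the list median was 0.28. Egln3, the oxygen-sensing prolyl hydroxylase, was at 237, 248 and 248 CPM in OS_12h and 157, 150 and 168 CPM in CON, but at 3.22, 6.63 and 6.47 CPM in AD_12h and 1.59, 2.03 and 2.69 CPM in CH_12h. It was also lower at 3 h in osteogenic medium, at 29, 30 and 30.6 CPM. Bnip3, a hypoxia-induced mitophagy receptor, was at 292 to 326 CPM in OS_12h, 64.4 CPM in AD_12h, 41.5 CPM in CH_12h and 82.8 CPM in OS_3h. In CON it was at 342 to 347 CPM, so OS_12h lay slightly below the undifferentiated level and the other groups far below it.

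Among the largest single differences, Ccr1, encoding a chemokine receptor, stood at 222, 222 and 208 CPM in OS_12h, at 5.12, 3.5 and 2.4 CPM in AD_12h and at no more than 1.11 CPM in CH_12h (log2 fold changes 5.58 ± 0.28 and 7.24 ± 0.28). Gldn separated OS_12h from AD_12h, where it was at 1.85 to 4.1 CPM, but CH_12h had 176 CPM on average. Gprc5a and F2rl1, encoding G protein-coupled receptors, were at 60.5 to 67 CPM and 44.3 to 55.8 CPM in OS_12h and at most 2.92 CPM in AD_12h. Lower than in AD_12h were Igfbp5, Spon1, Ptn, Sesn3 and Plpp3. Igfbp5, an IGF-binding protein gene of bone and fat stroma, was at 1.96, 2.24 and 2.44 CPM in OS_12h, at 767, 166 and 174 CPM in AD_12h, where replicate 1 stood well above the others, and at 139, 149 and 138 CPM in CH_12h. Spon1 was at 10.2 to 11.4 CPM against 202, 209 and 205 CPM in AD_12h.

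Highest against CH_12h, after Ccr1 and Egln3, were LOC102549061, Cyp3a9 and Hist1h1a, the last at 10.3 to 13.3 CPM in CH_12h. Lower than in CH_12h were Angptl7, Igfbp5, Sox9, Adamts4 and Sema7a. Sox9 stood at 20.2, 21.2 and 13.4 CPM in OS_12h and 632, 718 and 564 CPM in CH_12h (log2 fold change -5.07 ± 0.14, adjusted p = 1.1e-21). Of the 25 matrix genes 11 were lower than in CH_12h, among them Col5a1, Col8a2, Fbn2 and Postn, and Lama5 alone was higher. Of 15 contractile and actin genes 9 were lower than in CH_12h and 8 than in OS_3h. Among all genes tested 7.08% and 3.12% were lower in these comparisons. Cnn1, encoding calponin, was at 73.3 CPM in OS_12h, 388 CPM in CH_12h and 388 CPM in OS_3h. The glucocorticoid-responsive genes Tsc22d3, Mt2A and Crispld2, which rose against CON, were lower in OS_12h than in AD_12h, with Tsc22d3 at 74.7 and 373 CPM and Mt2A at 1034 and 4210 CPM.

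Between 3 h and 12 h in osteogenic medium the largest rises were in Cyp3a9, Cldn1, Apln, Egln3 and C5ar2. Cldn1 was at 2.82, 2.37 and 3.04 CPM at 3 h and 32.4, 36.5 and 32.5 CPM at 12 h. Apln, encoding the vascular peptide apelin, was at 0.474 to 1.38 CPM at 3 h, while its 12.7, 12.8 and 16.4 CPM at 12 h overlapped the 13, 12.3 and 16.1 CPM of CON. The largest falls were in Sema7a, Socs2, Has2, Gpr83 and Hcar2, all of which lay above CON in every sample at 3 h. In OS_3h replicate 3 Sema7a stood at 878 CPM, beside 533 and 503 CPM. Has2 was at 706, 708 and 513 CPM at 3 h and 50 to 55.5 CPM at 12 h. Socs2, a suppressor of cytokine signalling, was at 25.4, 25.6 and 11.9 CPM at 3 h and at most 0.897 CPM at 12 h, a level that overlapped CON. Of the cholesterol and fatty acid list Sqle, Insig1 and Fdft1 rose between 3 h and 12 h, the last not under every scaling.

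**Figure D5:**
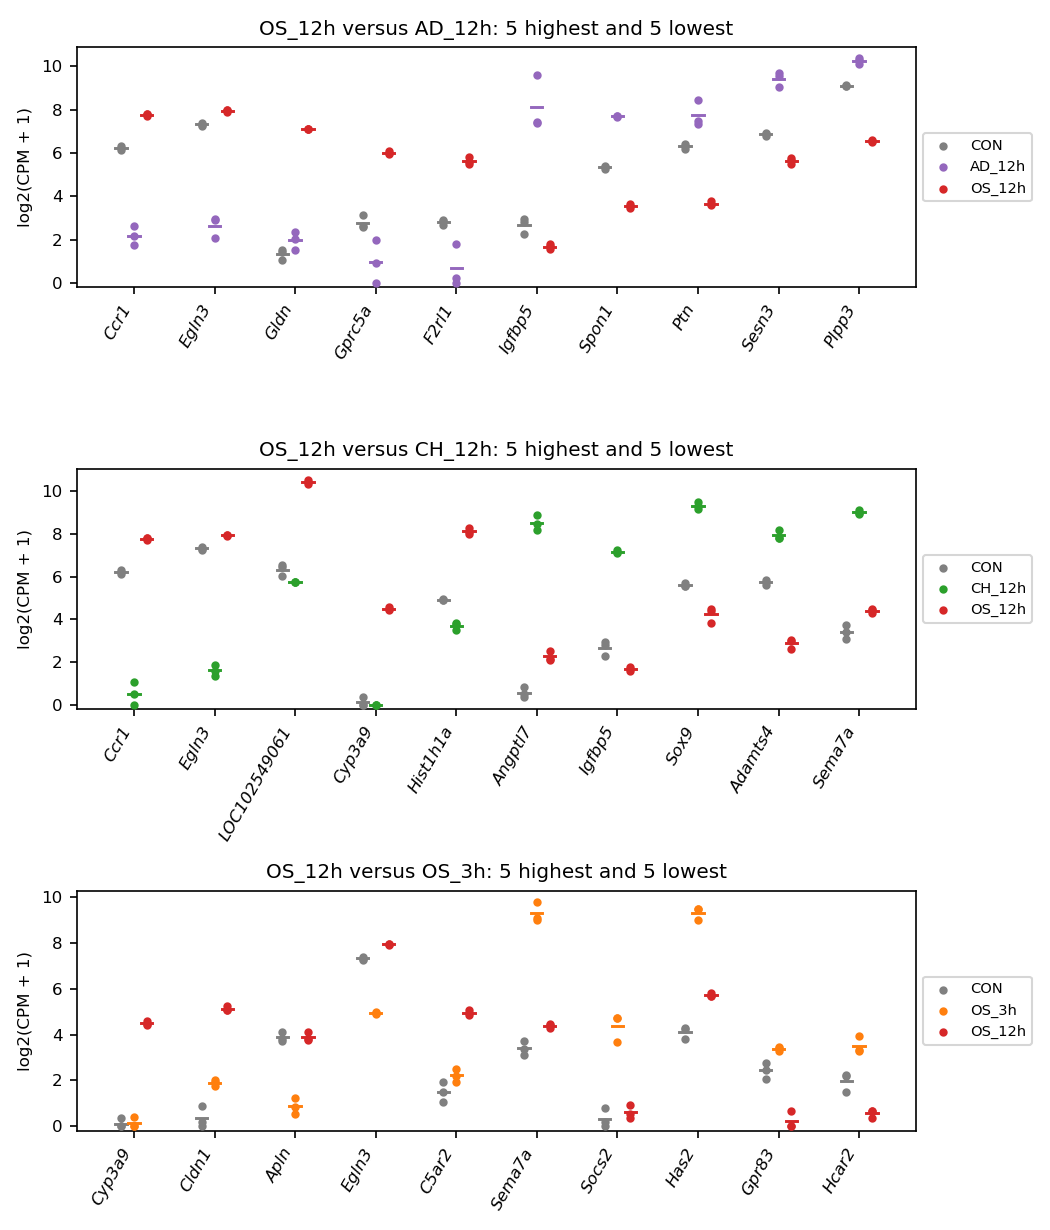
log2(CPM + 1) in each sample of OS_12h (red), CON (grey) and the group compared for the 5 genes highest and the 5 lowest in OS_12h against AD_12h, CH_12h and OS_3h; points are samples and bars are means. Ccr1 and Egln3 lie above CON in OS_12h and far below it in AD_12h and CH_12h, and Apln at 12 h lies level with CON.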

How the data were processed

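RNA-seq libraries of 30 samples in 10 groups of 3 were used. Per the labels, the authors trimmed reads with Trimmomatic, aligned them with HISAT2 and assembled them with StringTie. Versions, genome build and annotation are not given in the sources used here. The deposited values are named FPKM in the files, but they are whole multiples of 1 step per sample (tolerance 0.01) and are CPM as deposited by the authors, so whole reads could be recovered. The labels name ribosomal RNA removal, and the published methods an mRNA library. Each sample had 10803 rows with 9999 gene names, and rows sharing a name were summed. Of these names 8356 matched a RefSeq symbol and 454 a synonym only. Linear models of log2(CPM + 1) over all 30 samples, with group as the only term, were fitted with limma 3.58.1 under R 4.3.3, and two-sided moderated tests with a mean-variance trend were taken from them. Genes with a CPM of 1 or more in 3 or more samples were tested, 4363 in all. Genes were called at an absolute log2 fold change of 1 or more and a Benjamini-Hochberg adjusted p under 0.05. Fold changes on this scale understate changes of low genes. Ratios are of mean CPM. EdgeR 4.0.16 (quasi-likelihood, TMM) was run on the recovered reads, which came out whole for all values within the tolerance. Other alternatives were a pseudocount of 0.1, no filter, 3 scalings, a fit on the 6 samples compared, a replicate block and leaving out each replicate. On simulated reads with 200 of 4363 genes changed, limma recovered 117, including 81 of 82 whose mean was 10 CPM or more. It made 0 false calls among 4163 unchanged genes. EdgeR recovered 155, and called 7 unchanged genes.

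Named genes were the 12 largest rises and falls against CON, and the 5 largest in each other comparison, among called genes with groups that did not overlap and a mean of at least 5 CPM in the higher group. From each list the members with the largest change or that define it were named. The comparison and the gene lists were chosen with earlier results of these data known. Tables were handled with Python 3.11.15 and pandas 2.3.3. Some genes are not reported here.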

Additional observations from a re-analysis of the deposited data

Results flagged for a closer look

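For the genes below the 12 h osteogenic samples lay on 1 side of CON, and every sample of the group compared lay on the other. The values are the direct log2 differences on log2(CPM + 1), each past the threshold in limma. Against AD_12h, Ccr1 (5.585), Egln3 (5.301), Gprc5a (5.038) and F2rl1 (4.954) were above CON in OS_12h and below it in AD_12h. Igfbp5 (-6.459), Spon1 (-4.128), Ptn (-4.086), Sesn3 (-3.786) and Plpp3 (-3.698) were below CON in OS_12h and above it in AD_12h. Plpp3, encoding a lipid phosphate phosphatase, was at 90 to 96.7 CPM in OS_12h, 547 to 552 CPM in CON and 1109 to 1320 CPM in AD_12h. Against CH_12h the same held for Ccr1 (7.237), Egln3 (6.32), LOC102549061 (4.677) and Hist1h1a (4.418), above CON in OS_12h, and for Igfbp5 (-5.479), Sox9 (-5.07) and Adamts4 (-5.061), below it. Adamts4 was at 5.12 to 7.16 CPM in OS_12h and 220 to 292 CPM in CH_12h. Against OS_3h, Egln3 (2.991) was above CON at 12 h and below it at 3 h, and Gpr83 (-3.156) and Hcar2 (-2.937) were below CON at 12 h and above it at 3 h. Single outlying samples were not tested within groups of 3.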

How the results depend on the processing

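Against CON 952 genes were called. Quantile normalization called 827, of which 712 were among the 952, equal sums 898 (716 shared), median-ratio scaling 891 (727 shared), edgeR 1195 (742 shared) and a pseudocount of 0.1 called 1251 (942 shared). The fit on 6 samples called 947, and fits without a replicate 962 to 987. For AD_12h the range over replicates left out was 513 to 739, the highest without AD_12h replicate 1, for CH_12h 694 to 709 and for OS_3h 331 to 392. The list of cholesterol and fatty acid synthesis had 8 called members, against 5 with quantile normalization, 5 with median-ratio scaling, 4 with equal sums over listed genes and 5 in edgeR. The 14 ribosomal protein genes became 4, 6, 4 and 5 under the same settings. A share of 67.2% of calls against CON was higher, against 52.2% with quantile normalization, 46.6% with median-ratio scaling, 45% with equal sums and 39.0% in edgeR. Against AD_12h it was 53.1%, and 36.1 and 37.4% with equal sums and in edgeR. Against CH_12h it was 55.6%, and 42.1% in edgeR, and against OS_3h 60.1%, and 50.5% with median-ratio scaling, 50.3% with equal sums and 37.0% in edgeR. Same-numbered samples of OS_12h and CON did not deviate together (correlations -0.000692, -0.00528 and 0.00731). No pairing by number was seen, which with groups of 3 cannot exclude one. With a replicate block 951 genes were called against CON and 575 against AD_12h. Depth limits genes near 0.418 to 0.457 CPM, the level of 3 reads.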

Other observations

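The following 6 lists were chosen after values had been seen, so their counts describe them only. Their shares called ran from 32% (lysosome) to 76.9% (one-carbon and nucleotide synthesis), beside 21.8% of all genes tested. Of 13 genes of one-carbon and nucleotide synthesis tested, 10 rose in OS_12h against CON (median log2 fold change 2.02), 9 of them under every scaling. Dctpp1, encoding a dCTP pyrophosphatase, was at 7.16, 5.99 and 5.16 CPM in CON and 76.7, 86.2 and 83 CPM in OS_12h. Phgdh, which opens serine synthesis, rose 8.66-fold and Prps1, which makes the ribose precursor of nucleotides, 7.41-fold. Of 8 tubulin genes 5 rose, among them Tubb6, from 320, 324 and 316 CPM to 2253, 2359 and 2209 CPM. Of 17 genes of the nuclear pore and import 8 rose, such as Cse1l, an exportin, by 4.79-fold and Nup107, a pore scaffold protein, by 6.34-fold.

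In the other direction, 11 of 17 protocadherin genes fell (median -1.30), such as Pcdhga9, from 58.3, 60.6 and 56.7 CPM to 18.5, 17.3 and 15.8 CPM. Tubulins and protocadherins are families of close copies, so single members are uncertain. Of 25 lysosomal genes 8 fell, among them Gpnmb, a lysosomal membrane glycoprotein, from 1537, 1553 and 1541 CPM to 368, 395 and 372 CPM. Of 9 complement genes 3 fell and 1 rose. Serping1, encoding the C1 inhibitor, fell from 3899, 3874 and 4044 CPM to 445, 465 and 441 CPM, and C1s and C1r fell 5.47- and 2.38-fold. C5ar2, encoding a C5a receptor, rose from 2.87, 1.81 and 1.06 CPM to 29.8, 27.5 and 32.1 CPM. The members called in these lists were called under every scaling except Impdh2.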
